A study of Arabidopsis thaliana with 8 samples.

Results

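Aquaporins are the membrane channels through which plant cells pass water and, in some members, small neutral solutes. The 35 aquaporin genes of Arabidopsis thaliana were taken by their loci from a list that fixes the family: 13 plasma membrane intrinsic proteins (PIP), 10 tonoplast intrinsic proteins (TIP), 9 nodulin 26-like intrinsic proteins (NIP) and 3 small basic intrinsic proteins (SIP). All 35 loci had at least 1 probe, 80 probes in all, among the 25410 loci that the arrays' probes could be matched to. Names are written with a hyphen, so that PIP1-1 is the gene also written with a semicolon between the same digits. RNA came from stems 10 cm long of plants of the Col0 background, grown on soil, and was read on 8 single-colour Agilent arrays. Growth temperature was 23 °C for both groups, and lamps were on for 16 h and off for 8 h each day. The 4 control arrays held RNA of the double mutant nst1-1 nst3-1, in which both NAC transcription factors that start secondary wall formation in fibers, NST1 and NST3, are mutated. The other 4 arrays held RNA of the same double mutant carrying NST3pro:CEF2-VP16:HSP, in which the NST3 promoter, active in fibers, drives an AP2/ERF factor fused to the VP16 activation domain. The labels call the factor CEF2 and the design text calls it ERF035. Both groups carry both mutations, no wild-type stems are compared, and the labels do not say how many transgenic lines or plants each RNA came from. The p-values below therefore set the difference between the groups against the spread among these arrays, and that spread may be technical.

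An aquaporin assembles as a tetramer in which each subunit forms its own pore, lined in most members by a pair of conserved asparagine-proline-alanine motifs. PIPs set the water permeability of the plasma membrane, and PIP1 proteins often need a PIP2 partner to reach it. TIPs do the same for the vacuole membrane, which encloses the large vacuole whose swelling drives cell expansion. NIPs carry solutes such as boric acid, which cross-links pectin in the primary wall, and SIPs lie in the endoplasmic reticulum. Stem aquaporins are best known from vascular tissue and from elongating cells.

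All levels below are log2 of the processed signal over the array's own 75th percentile, so a level of 0 is the 75th percentile and -6.64 is the floor set at 0.01 of it. Levels of different genes rest on different probes and are not set against each other. Means carry the SD of the 4 arrays of a group, changes are transgenic minus control with their standard error (n = 4 arrays per group), and arrays 1 to 4 of a group are named in that order. An array's 75th percentile was 2344 to 3642 units, with 30289 to 32382 of its 43603 probes well above background. The construct's gene ERF035 read 7.72 ± 0.68 log2 units higher in the transgenic stems (limma adjusted p = 0.000114). Each group was hybridised on a slide of its own, so slide and genotype cannot be told apart. Correlations between arrays were 0.953 to 0.987 among the controls, 0.987 to 0.994 among the transgenic arrays and 0.877 to 0.936 across the groups. Tissue markers were detected for the epidermis, green tissue, phloem, vessels, cambium and pollen. Seed storage markers were at or near the floor, and of the 3 root hair markers RHD6 alone passed the filter. In whole stems, fewer cells of a type and less RNA per cell cannot be told apart.

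Of the 35 aquaporins, 28 entered the fit, which required a signal well above background on 4 or more of the 8 arrays. At a limma adjusted p under 0.05, 10 of these 28 were higher in the transgenic stems, against a background of 29.5% of the 19609 genes tested. Lower were 5 of the 28, against 24.8%. Changes of at least 1 log2 unit were found in 5 higher members (10.7% of all genes) and in 3 lower ones (10.5%). The arrays of the 2 groups did not overlap, with the transgenic ones above, for 10 of the 28 (27.9% of all genes) and, with them below, for 5 (22.7%). These shares lie near the background on each count and say nothing particular about the family. The counts describe only the members that passed the filter, and PIP2-5 and NIP4-2 passed it mainly or entirely through the transgenic arrays, so PIP2-5 had to differ. With a filter of all 8 arrays, which removes it, 9 were higher and 5 lower of 25 tested, with no share over all genes computed for that filter. The median change of the 28 was 0.32 against 0.03 over all genes, but -0.12 against -0.40 when arrays were scaled on Agilent's E1A spike-in probes.

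By subfamily, the shares over all genes to read the counts against are 29.5% higher and 24.8% lower, or 10.7% and 40.0% with spike-in scaling. Of the 13 PIPs tested 7 were higher and 1 lower, against 3 and 3 with spike-in scaling, where their median change of 0.35 turned to -0.09. Of the TIPs 7 of 10 were tested, and 3 were higher and 2 lower under both scalings, with a median of 0.44 that turned to -0.01. Of the NIPs 5 of 9 were tested, and 0 were higher and 2 lower under both scalings, with a median of 0.10 that turned to -0.34. All 3 SIPs were tested and none passed, against 0 higher and 1 lower with spike-in scaling, where their median of 0.30 turned to -0.15. Whether the subfamilies differ from each other was not tested.

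**Figure D1:**
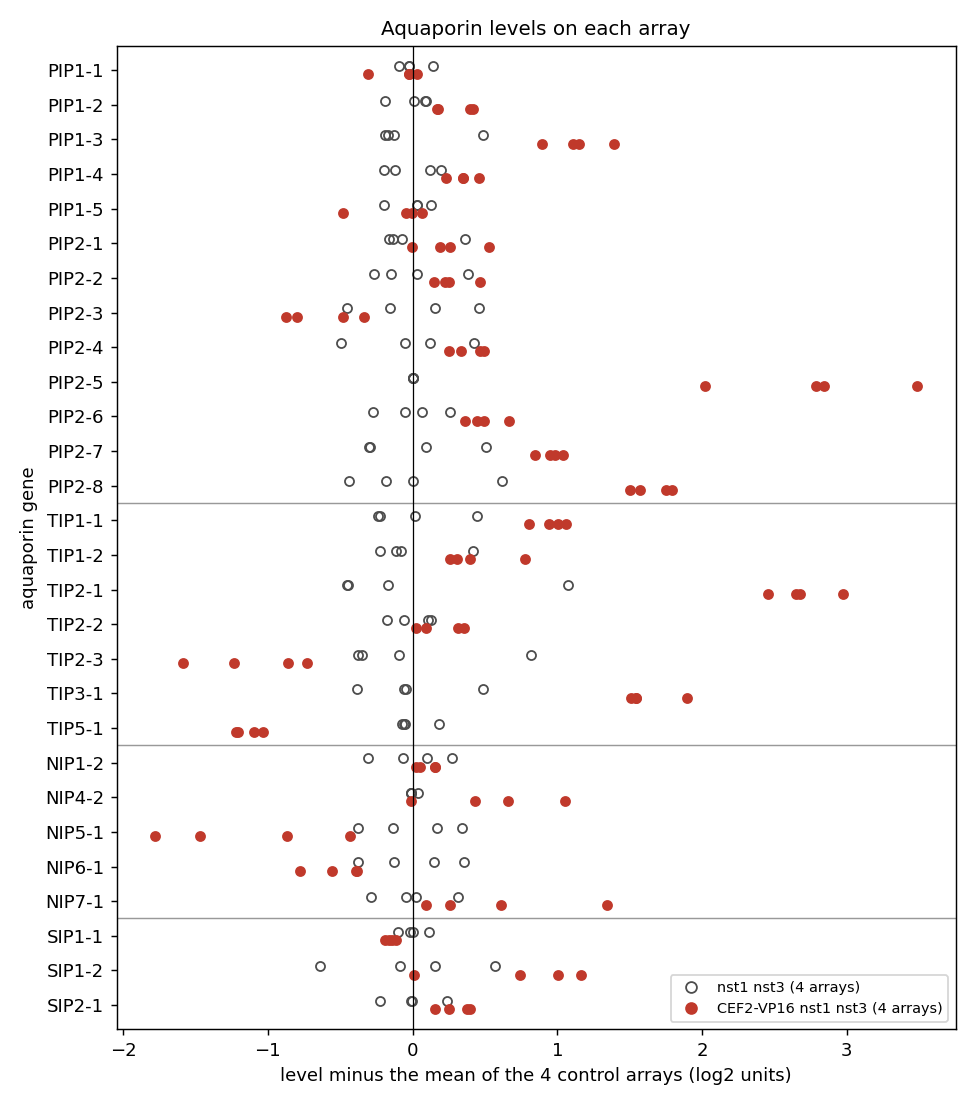
Level of each of the 28 tested aquaporins on each array, as the difference in log2 units from the mean of the 4 control arrays; open circles are the 4 nst1 nst3 arrays, filled circles the 4 CEF2-VP16 nst1 nst3 arrays, and grey lines separate PIP, TIP, NIP and SIP. PIP2-5 and TIP2-1 lie farthest to the right, with mean changes of at least 2.78 (its controls are at the floor) and of 2.69, and TIP5-1, NIP5-1 and TIP2-3 farthest to the left, with -1.14, -1.14 and -1.10.

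Among the 5 PIP1 genes, 3 were higher and none lower in the transgenic stems. PIP1-3 (AT1G01620, a plasma membrane water channel) read 4.49, 5.17, 4.56 and 4.52 on the control arrays and 5.58, 5.84, 5.79 and 6.08 on the transgenic arrays. Every transgenic array lay above every control array, and control array 2 was the control nearest to them. The change was 1.14 ± 0.18, a 2.2-fold difference (limma adjusted p = 0.00118), and all 4 probes of the gene were higher, by 0.87 to 1.47. This was the one PIP1 call that held with spike-in scaling, where it was 0.70.

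The other PIP1 genes moved little. PIP1-2 (AT2G45960, known for leaf water and CO2 transport) read 4.32, 4.31, 4.23 and 4.03 in the controls and 4.64, 4.40, 4.39 and 4.62 with the construct. The groups did not overlap, and the gap between them was narrow. Its change of 0.29 ± 0.10 passed (limma adjusted p = 0.042), all 6 probes were higher by 0.29 to 0.48, and the sign turned to -0.15 with spike-in scaling. PIP1-4 (AT4G00430) read 2.83, 2.90, 2.59 and 2.51 in the controls and 3.17, 2.94, 3.05 and 3.05 with the construct. Transgenic array 2 stood just above the highest control, and the other transgenic arrays stood clear of them. The change was 0.35 ± 0.11 (limma adjusted p = 0.0273) and -0.09 with spike-in scaling. PIP1-2 was not called with quantile normalization (0.25, limma adjusted p = 0.0993) or array weights (0.27, 0.0519), and PIP1-4 was not called as the mean of its probes (0.10, 0.456). Both calls also ended when single arrays were left out, for PIP1-2 without any one array other than control array 2, and for PIP1-4 without control arrays 3 or 4 or transgenic arrays 1, 3 or 4.

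PIP1-1 and PIP1-5 did not pass. PIP1-1 (AT3G61430) read 4.01 ± 0.10 and 3.93 ± 0.15 (SD, n = 4 each), a change of -0.08 whose 95% interval ran from -0.31 to 0.15. PIP1-5 (AT4G23400) read 6.06 ± 0.14 and 5.95 ± 0.25, a change of -0.12 with an interval from -0.43 to 0.20. Both groups overlapped for both genes, and with spike-in scaling both were called lower, at -0.52 and -0.56.

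The PIP2 genes, whose products are the more active water channels of the plasma membrane, held 4 higher members and 1 lower one of 8. PIP2-5 (AT3G54820) was at the floor on all 4 control arrays, with processed signals of 24.1, 12, 12.5 and 34.0, and was well above background on 1 of them. On the transgenic arrays it read -3.16, -4.62, -3.85 and -3.80, from processed signals of 365, 95, 181 and 174. The groups lay far apart, and the transgenic arrays also differed among themselves more than those of most other aquaporins. Against the floor the transgenic level was at least 6.89-fold that of the controls, 2.78 log2 units, and 3.61 at a floor of 0.001. Normexp correction, which adds an offset of 50 to each signal, gave 1.93. Its limma adjusted p of 0.000156 is no support, since the gene met the filter through the transgenic arrays and its floored controls have no spread. The gene remained a dim one in the transgenic stems.

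PIP2-8 (AT2G16850) read -3.26, -2.65, -3.70 and -3.45 in the controls and -1.51, -1.76, -1.69 and -1.47 with the construct. All transgenic arrays lay above the highest control, again control array 2. The change was 1.66 ± 0.21, a 3.15-fold difference (limma adjusted p = 0.000496), and it was called in every alternative that was run. PIP2-7 (AT4G35100, also known as a salt-stress-inducible intrinsic protein) read 4.21, 5.03, 4.22 and 4.61 in the controls and 5.36, 5.56, 5.50 and 5.47 with the construct. The transgenic arrays were close together and all above the controls. The change was 0.96 ± 0.18 (limma adjusted p = 0.00299), its 5 probes gave 0.73 to 0.96, and with spike-in scaling 0.51 missed the threshold (adjusted p = 0.0606).

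PIP2-6 (AT2G39010, known from leaf veins) read 4.17, 4.37, 4.05 and 3.83 in the controls and 4.47, 4.55, 4.60 and 4.77 with the construct. The groups did not overlap. The change of its brightest probe was 0.49 ± 0.13 (limma adjusted p = 0.0119), and 0.05 with spike-in scaling, which ended the call. The size of this change depended on the probe, as described with the probe plot.

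PIP2-3 (AT2G37180), first isolated as the dehydration-responsive gene RD28, was the one PIP called lower. It read -0.36, -0.05, -0.97 and -0.67 in the controls and -0.84, -1.39, -0.99 and -1.31 with the construct. The groups overlapped, since control array 3 lay below transgenic array 1. The change was -0.62 ± 0.21 (limma adjusted p = 0.0371), and the call ended without control arrays 1, 2 or 4, without transgenic arrays 2, 3 or 4, and with no filter on dim probes (adjusted p = 0.0727).

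The remaining PIP2 genes leaned higher but did not pass. PIP2-1 (AT3G53420, a major water channel with a known role in guard cells) read 6.19 ± 0.25 and 6.43 ± 0.22, a change of 0.24 with a 95% interval from -0.11 to 0.60. PIP2-2 (AT2G37170, known for water uptake by roots) read 2.56 ± 0.28 and 2.83 ± 0.14, a change of 0.27 (-0.07 to 0.61). PIP2-4 (AT5G60660, known mainly from roots) read 1.30 ± 0.38 and 1.69 ± 0.11, a change of 0.39 (-0.04 to 0.81). Each of the 3 overlapped between groups, each was called without control array 2, at 0.37, 0.40 and 0.53, PIP2-2 and PIP2-4 were also called with array weights, and each changed sign with spike-in scaling, to -0.20, -0.17 and -0.05.

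The TIPs held both rises and falls of more than 1 log2 unit. TIP2-1 (AT3G16240), the delta-TIP of vegetative tissue, which carries water and, in yeast assays, ammonia, read 4.08, 5.60, 4.07 and 4.36 on the control arrays. On the transgenic arrays it read 6.99, 7.21, 7.18 and 7.51. All transgenic arrays stood well above all controls, and control array 2 stood apart from the other controls in their direction. The change was 2.69 ± 0.33, a 6.46-fold difference (limma adjusted p = 0.000425), and its 5 probes gave 2.56 to 2.77. It was 3.05 without control array 2 and 2.25 with spike-in scaling, the highest and lowest values over its 23 alternatives.

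TIP1-1 (AT2G36830), the gamma-TIP of expanding cells, read 4.71, 5.14, 4.45 and 4.46 in the controls and 5.64, 5.50, 5.70 and 5.75 with the construct. The transgenic arrays were all above the controls. The change was 0.95 ± 0.16 (limma adjusted p = 0.00162), its 4 probes gave 0.95 to 1.49, and it was 0.51 with spike-in scaling (adjusted p = 0.0459). TIP1-2 (AT3G26520), its closest relative, read 4.40 ± 0.29 and 4.84 ± 0.23 and its change of 0.44 ± 0.17 missed the threshold (limma adjusted p = 0.0608). It was called without control array 2 (0.58), with array weights (0.48) and as the mean of its probes (0.44), and read -0.01 with spike-in scaling. Of its 5 probes 2 were called higher, with changes from 0.29 to 0.53.

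TIP3-1 (AT1G73190), the alpha-TIP of seed storage vacuoles, was dim in both groups. It read -6.31, -5.77, -6.30 and -6.64 in the controls and -4.71, -4.72, -4.75 and -4.36 with the construct, from processed signals of 30.7 to 50.8 and 89.3 to 124. The groups were separate and 1 control was at the floor. The change was 1.62 ± 0.19 (limma adjusted p = 0.000301), and 0.94 with normexp correction, which moves dim probes most. None of the seed markers 2S3, CRA1 and OLEO1 passed the filter. 2S3 and OLEO1 were above background on no array, and CRA1 on 1 control array and 2 transgenic arrays. The summed level of the 3 was 0.03 in the controls and 0.03 to 0.0313 with the construct, on the linear scale of signal over the 75th percentile. The floor sets nearly all of these sums, so they do not measure seed RNA. TIP3-2 (AT1G17810), the seed partner of TIP3-1, was above background on 0 of 8 arrays and was not tested.

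TIP5-1 (AT3G47440), known as the aquaporin of pollen mitochondria, was lower, with little spread in either group. It read -1.92, -1.93, -1.91 and -1.68 in the controls and -2.96, -3.08, -2.90 and -3.07 with the construct. The groups did not overlap, and control array 4 lay farthest from the transgenic arrays. The change was -1.14 ± 0.09, a 2.2-fold lower level (limma adjusted p = 7.9e-05), and it held in every alternative that was run. The 4 pollen markers were lower as well, against 24.8% of all genes, VGD1 at -1.73, PPME1 at -1.58, AGP11 at -1.42 and AGP6 at -1.32. Their summed level on the linear scale was 6.53 to 7.79 on the control arrays and 2.13 to 3.06 on the transgenic ones, and their part in the TIP5-1 value was not tested. TIP1-3 (AT4G01470), another pollen TIP, was above background on 2 control arrays and 0 transgenic arrays and was not tested.

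TIP2-3 (AT5G47450), known mainly from roots, was also lower. It read -3.66, -3.92, -3.95 and -2.75 in the controls and -4.43, -4.80, -4.30 and -5.16 with the construct. The groups did not overlap, with control array 4 the highest. The change was -1.10 ± 0.30 (limma adjusted p = 0.0153), but it was -0.52 and no longer called with normexp correction (adjusted p = 0.0575), and -0.84 and not called as the mean of both probes (adjusted p = 0.0867). TIP2-2 (AT4G17340) read 4.42 ± 0.14 and 4.61 ± 0.17, a change of 0.20 (95% interval -0.06 to 0.46) that did not pass in any of its 4 probes. TIP4-1 (AT2G25810), a root TIP, was above background on 0 control arrays and 2 transgenic arrays and was not tested.

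The NIPs were mostly silent or dim in these stems. NIP1-1 (AT4G19030, root), NIP2-1 (AT2G34390, a lactic acid channel), NIP3-1 (AT1G31885, an arsenite channel of roots) and NIP4-1 (AT5G37810, pollen) were above background on 0 of 8 arrays. The 2 NIPs that passed, NIP5-1 and NIP6-1, are boric acid channels, and NIP7-1, another, did not pass. NIP5-1 (AT4G10380), the boric acid channel best known for uptake into roots, read 0.12, -0.44, -0.19 and 0.29 in the controls and -0.49, -1.52, -0.92 and -1.84 with the construct. The groups did not overlap, though transgenic array 1 lay just under control array 2. The change was -1.14 ± 0.30, a 2.2-fold lower level (limma adjusted p = 0.0138).

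NIP6-1 (AT1G80760), the boric acid channel that supplies young shoot tissue through the stem nodes, read 2.43, 2.18, 2.71 and 2.92 in the controls and 2.17, 2.0, 2.17 and 1.78 with the construct. The groups were separated only by the small step between control array 2 and transgenic arrays 1 and 3. The change was -0.53 ± 0.17 (limma adjusted p = 0.0317), and the call ended without control arrays 3 or 4, without transgenic arrays 2 or 4, and with no filter on dim probes (adjusted p = 0.0591). NIP7-1 (AT3G06100), the boric acid channel of the anther tapetum, read -6.07 ± 0.25 and -5.50 ± 0.56, a change of 0.58 (95% interval -0.05 to 1.20) that did not pass.

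NIP4-2 (AT5G37820), a pollen NIP, was above background on 0 control arrays and on 4 transgenic arrays, at -6.64, -5.97, -6.20 and -5.58. Its level there was at least 1.45-fold that of the controls (limma adjusted p = 0.0548). It passed the filter only through the transgenic arrays, so this p and its calls under other settings are no support. NIP1-2 (AT4G18910) read -2.13 ± 0.25 and -2.03 ± 0.07, a change of 0.10 with a 95% interval from -0.19 to 0.39.

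None of the SIPs passed. SIP1-1 (AT3G04090) read 2.46, 2.38, 2.60 and 2.48 in the controls and 2.32, 2.33, 2.36 and 2.29 with the construct. The groups did not overlap, with the transgenic arrays below, but the step was small, with a change of -0.15 ± 0.07 (limma adjusted p = 0.107). It was called lower with spike-in scaling, at -0.60, and with no filter on dim probes (adjusted p = 0.0374). SIP1-2 (AT5G18290) read -6.01 ± 0.50 and -5.28 ± 0.51, a change of 0.73 ± 0.32 (limma adjusted p = 0.0822) that was called with normexp correction, with array weights, without control array 2 and without transgenic array 4. SIP2-1 (AT3G56950) read 0.64 ± 0.19 and 0.94 ± 0.11, a change of 0.30 ± 0.11 (limma adjusted p = 0.0558) near the threshold. It was called with quantile normalization, normexp correction, trend and robust settings and array weights, and without control array 3, transgenic array 1 or control arrays 2 and 3 together, but read -0.15 with spike-in scaling.

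Near relatives within a subfamily were compared in their changes. For 10 pairs with both members tested, the within-array log2 difference of the members was compared between groups, which removes any scaling of a whole array. In an exact permutation test, two-sided and with 70 assignments of the arrays, 8 of the 10 pairs reached p = 0.0286, the smallest it can give, and an adjusted p of 0.0357 over the 10 pairs. No share over pairs of other genes was computed to read this count against. The 8 pairs include PIP2-5 against PIP2-6, whose p is no support, as said below, and TIP2-2 enters both TIP2 pairs. In the TIP2 clade, TIP2-1 gained 2.49 log2 units on TIP2-2, and TIP2-2 gained 1.30 on TIP2-3. TIP1-1 gained 0.52 on TIP1-2. The difference between TIP2-2 and TIP2-3 was 0.65 with normexp correction, and 0.97 and not called with the mean of probes (exact permutation test, adjusted p = 0.0635).

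In the PIP clades, PIP2-5 gained 2.29 on PIP2-6, a value that rests on the floor of PIP2-5 and on the brightest probe of PIP2-6. It was 1.18 with the mean of probes, 1.55 with normexp correction and 3.12 at a floor of 0.001, and its p is no support for the reason given with PIP2-5. PIP2-8 gained 0.70 on PIP2-7. PIP1-3 gained 0.79 on PIP1-4, and PIP1-2 gained 0.37 on PIP1-1, a difference not called with quantile normalization (exact permutation test, adjusted p = 0.0635). PIP2-2 gained 0.90 on PIP2-3, which is its neighbour on chromosome 2 with 0 coding genes between them. These 2 genes have closely similar transcripts, and probes of such genes can bind each other's RNA. For NIP5-1 against NIP6-1, a change of -0.61, and SIP1-1 against SIP1-2, a change of -0.89, the exact permutation test gave p = 0.0571 (adjusted 0.0571). Without control array 3 or control array 4, 0 of the 10 pairs kept an adjusted p under 0.05 in the exact permutation test, where 35 assignments remained and the lowest adjusted p was 0.0571.

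**Figure D2:**
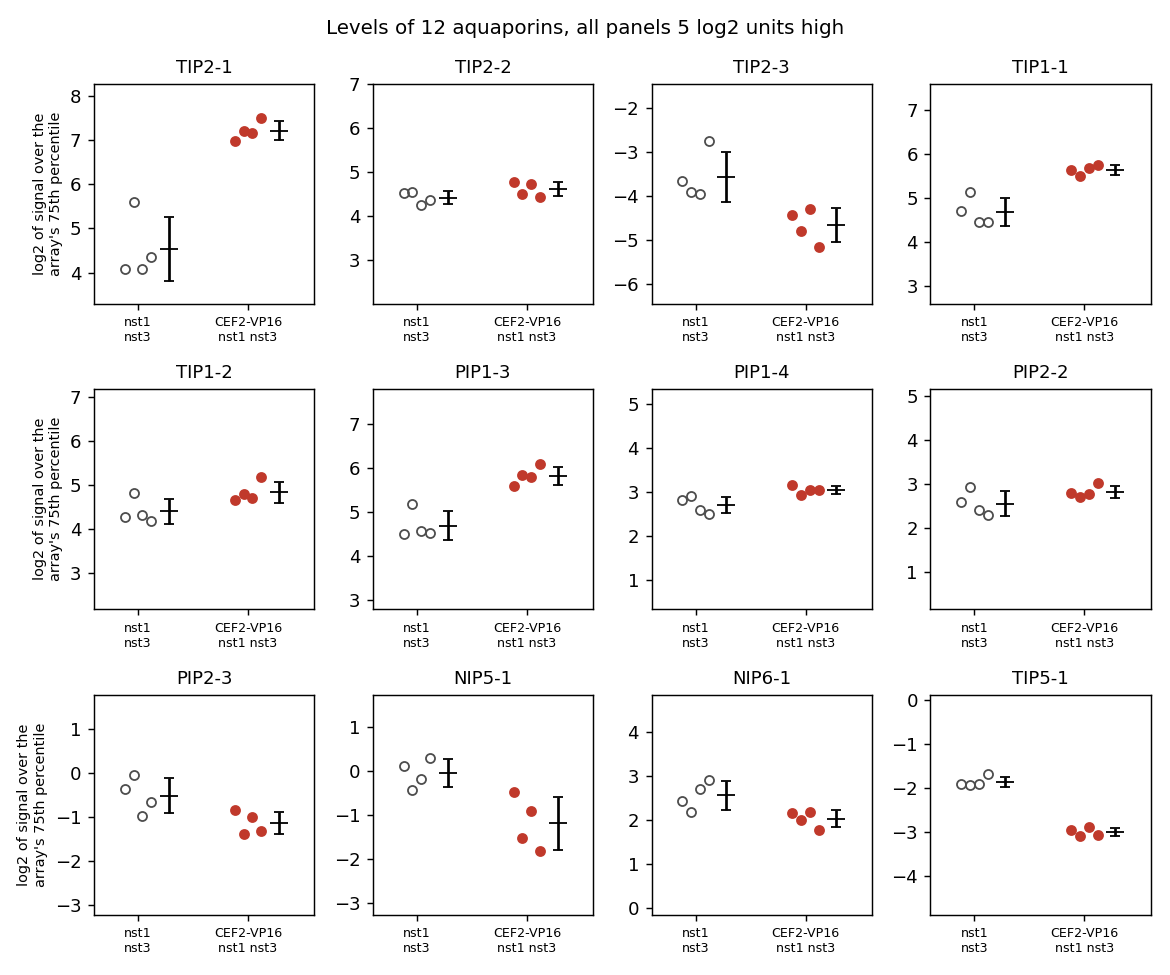
Levels of 12 aquaporins by group, as log2 of the ratio of signal to 75th percentile, in panels of equal height; points are single arrays, and the cross and bar are the mean and SD of the 4 arrays. TIP2-1 rises from 4.53 to 7.22 while TIP2-2 stays between 4.24 and 4.77 on all 8 arrays and TIP2-3 falls from -3.57 to -4.67.

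Different probes of a gene mostly read the same direction. All probes were called higher for PIP1-2, PIP1-3, PIP2-6, PIP2-7, TIP1-1 and TIP2-1, which have 4 to 6 probes each. The probes of PIP2-6 gave 0.49, 0.79, 2.1, 2.29 and 2.36, so the brightest one gave the smallest change of the 5, and the mean of the probes gave 1.61. Probes were called in opposite directions for 2 genes. The 4 probes of PIP1-1 gave -0.22, -0.08, -0.08 and 0.92, of which the first was called lower and the last, a dim probe at -5.92 in the controls, was called higher. For PIP1-4, the 4 probes listed for one transcript gave 0.18 to 0.35, and the probe listed for another transcript of the gene gave -0.57 and was called lower. The second, dimmer probe of TIP2-3 gave -0.58 and was not called.

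**Figure D3:**
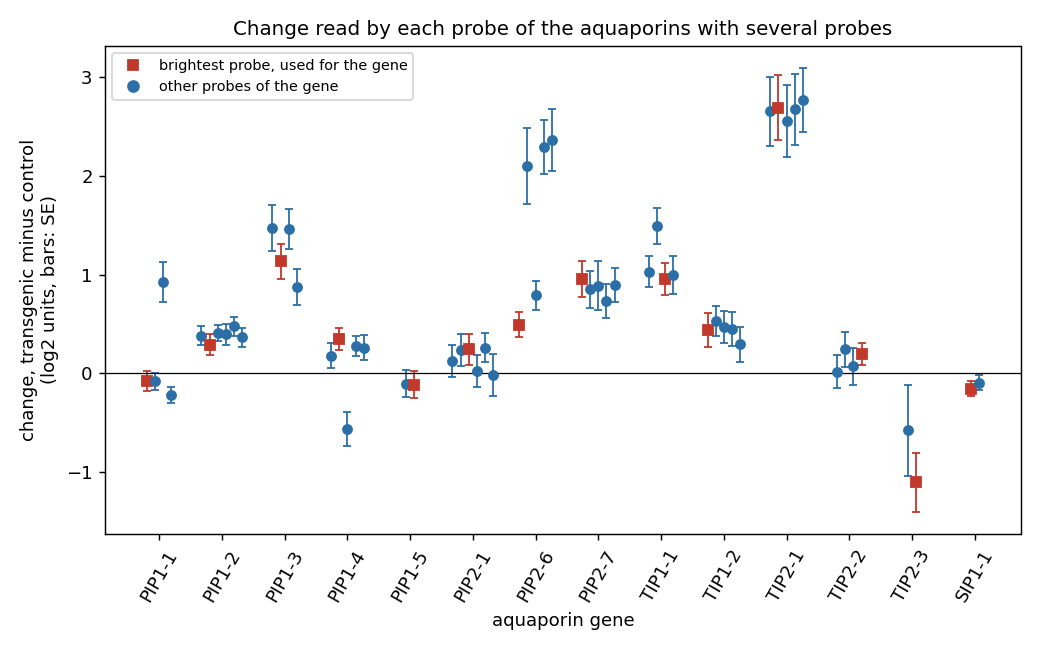
Change of each probe in log2 units, transgenic minus control, with its standard error, for the 14 tested aquaporins that have more than 1 probe; squares are the brightest probe, which stands for the gene, and circles are the others. The 5 probes of TIP2-1 lie between 2.56 and 2.77, while those of PIP2-6 spread from 0.49 to 2.36.

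The scaling decides the direction of the smaller changes. Of 10 spike-in probes, the 8 well above background on every array read 0.38 to 0.50 higher over the 75th percentile on the transgenic arrays, and scaling on them moved the median gene by -0.43. Under that scaling 6 aquaporins were higher, PIP1-3, PIP2-5, PIP2-8, TIP1-1, TIP2-1 and TIP3-1, against a background of 10.7% of genes. Lower were 8, PIP1-1, PIP1-5, PIP2-3, TIP2-3, TIP5-1, NIP5-1, NIP6-1 and SIP1-1, against 40.0%. No aquaporin was called in opposite directions by the 2 scalings. The 6 higher members and the 5 lower members PIP2-3, TIP2-3, TIP5-1, NIP5-1 and NIP6-1 were called under both. Because spike-in scaling moves changes downward, it favours lower calls, and those 5 lower calls gain no support from holding under it.

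**Figure D4:**
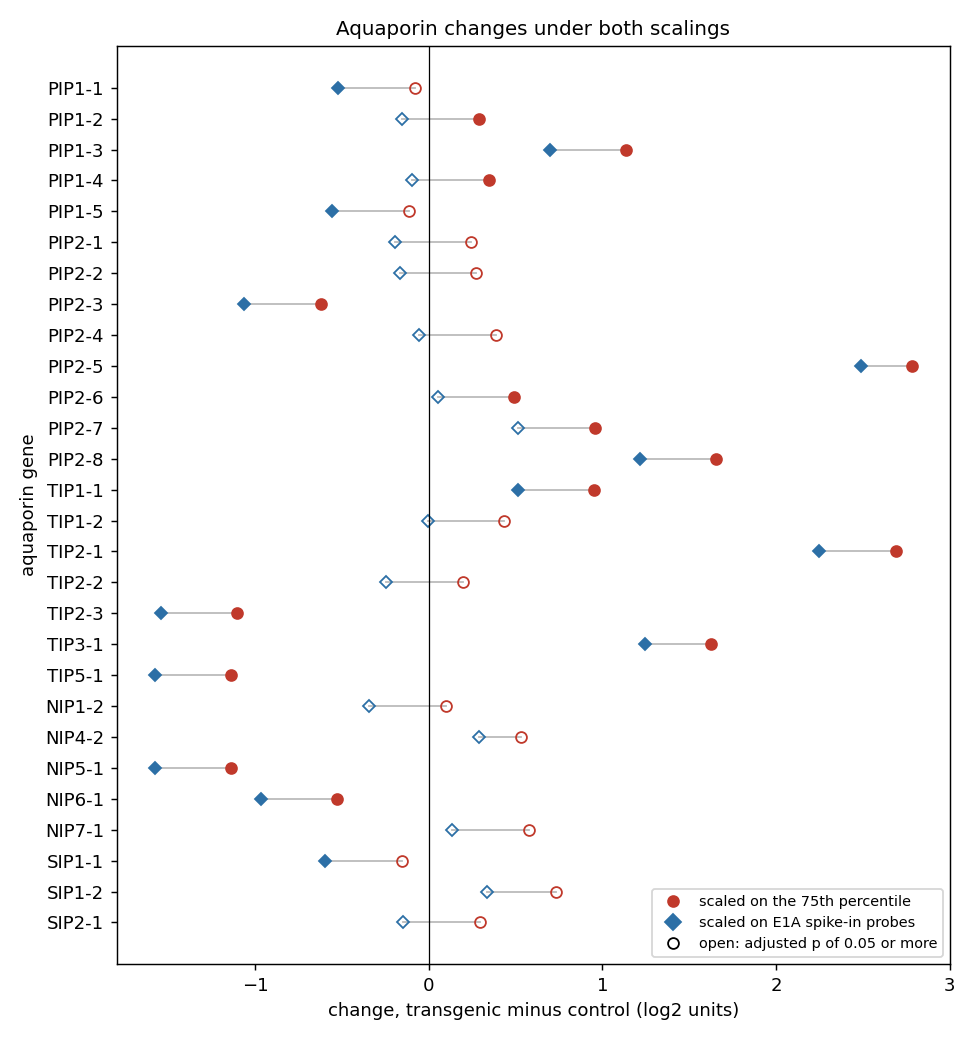
Change of each of the 28 tested aquaporins in log2 units with scaling on the 75th percentile (circles) and on spike-in probes (diamonds); open symbols have an adjusted p of 0.05 or more. Every diamond lies to the left of its circle, TIP2-1 at 2.25 against 2.69, and 9 aquaporins cross 0 while none is called on both sides of it.

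Control array 2 stood nearer to the transgenic arrays than the other controls for most aquaporins. It was the control closest to the transgenic mean for 20 of the 28, against 41.9% of all genes, and the highest control for 19 of the 28, against 29.7%. It was also the control with the highest summed epidermis markers, 58.5 against 26.1 to 49.6, green tissue markers, 643 against 441 to 479, and vessel markers, 29.6 against 14.4 to 20.6, on the linear scale. The epidermis sum on this array rests mainly on CER1, at 5.24 in log2 units. Of the epidermis markers, control array 2 was the highest control for CER1 and the dim PDF1, but not for ATML1, CER5, FDH or CER6. Control array 2 was not the highest for cambium markers, 3.55 against 3.97 on control array 3, or pollen markers, 7.23 against 7.79 on control array 3. Nor was it for phloem markers, 18.63 against 18.69 on control array 4. Without control array 2 the calls were 15 aquaporins higher and 4 lower. The share of all genes called without this array was not computed, so these counts say nothing particular about the family. The median SD of the 28 was 0.26 log2 units in the controls and 0.17 with the construct, against 0.21 and 0.13 over all genes.

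Tissue markers differed between the groups, by an amount that depended on the scaling. Summed levels are on the linear scale over the 75th percentile. The shares over all genes are 29.5% higher and 24.8% lower, or 10.7% and 40.0% with spike-in scaling. Of the 6 epidermis markers 5 were higher (26.1 to 58.5 on the control arrays, 83.8 to 107 on the transgenic ones), and 1 with spike-in scaling. Of the 5 green tissue markers 4 were higher (441 to 643 against 646 to 805), and 0 with spike-in scaling. All 4 vessel markers were higher (14.4 to 29.6 against 31.1 to 35.8), and 2 with spike-in scaling. All 4 cambium markers were higher (3.28 to 3.97 against 6.31 to 8.55), and 3 with spike-in scaling. Of the 4 phloem markers 2 were higher and 1 lower (18.4 to 18.7 against 17.1 to 21.6), and 0 and 2 with spike-in scaling. The part of these tissues in the aquaporin values was not tested.

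Proton pumps energise the same membranes, and the shares over all genes again are 29.5% higher and 24.8% lower, or 10.7% and 40.0% with spike-in scaling. Of 28 tested subunits listed for the tonoplast pumps, 13 were higher and 1 lower, with a median of 0.27. With spike-in scaling 1 was higher and 1 lower, and the median turned to -0.17. Which of the listed isoforms lie in the tonoplast of stem cells was not tested. The largest changes were 1.31 ± 0.13 for VHA-G2, -0.79 ± 0.26 for VHA-G3, 0.67 ± 0.12 for VHA-e1 and 0.59 ± 0.13 for VHA-e2. Of the 11 plasma membrane proton pumps 1 was higher and 6 lower, with a median of -0.37, and 0 and 7 with a median of -0.77 with spike-in scaling. The 6 lower include AHA6, which was above background on 4 control arrays and 0 transgenic arrays. It passed the filter only through the controls, so its call is no support. The 2 lists were not tested against each other, nor was it tested whether these pumps lie in the same cells as the PIPs. Pollen markers were lower as well, and the part of pollen RNA in the pump values was not tested. AHA8, at -1.22 ± 0.11, and AHA7, at -1.16 ± 0.10, were lower without overlap, AHA4 was lower at -2.61 ± 0.87 with overlapping groups, and AHA2 was higher at 0.68 ± 0.13, though not with spike-in scaling.

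For the next 2 lists the shares over all genes are again 29.5% higher and 24.8% lower, or 10.7% and 40.0% with spike-in scaling. Of 14 genes known to act on aquaporin traffic or phosphorylation, 4 were higher and 6 lower, or 2 and 6 with spike-in scaling. TSPO, which targets PIP2-7 for degradation, was lower at -1.77 ± 0.21. It was at the floor on 2 of the 4 transgenic arrays, so the size of this change depends on the floor. SYP121, a syntaxin that delivers PIPs to the plasma membrane, was lower at -1.44 ± 0.20. SIRK1, a receptor kinase that phosphorylates PIPs, was higher at 1.17 ± 0.10, and RMA1, whose relative in pepper is a ubiquitin ligase that holds PIP2-1 back in the endoplasmic reticulum, at 1.08 ± 0.24. Of the 5 tested borate exporters, partners of the boric acid channels, 3 were lower and 1 higher, or 4 and 0 with spike-in scaling. BOR5 was at -1.71 ± 0.42, BOR7 at -1.68 ± 0.12, BOR2 at -0.57 ± 0.16 and BOR3 at 0.65 ± 0.09. BOR1, the exporter that loads boron into the xylem, read 2.65 ± 0.31 and 2.16 ± 0.26 and did not pass (limma adjusted p = 0.0561). BOR4 was not above background on any array.

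Genes of dehydration and abscisic acid response, conditions that change the levels of several PIPs in leaves, were split. The shares over all genes are 29.5% higher and 24.8% lower, or 10.7% and 40.0% with spike-in scaling. Of 7 tested, 4 were higher and 2 lower, or 3 and 3 with spike-in scaling, with RD29A at 4.23 ± 0.35, COR15A at 2.85 ± 0.54, NCED3 at -5.51 ± 0.63 and HAI1 at -1.41 ± 0.17. All 8 genes of touch and wounding were lower under both scalings, with a median change of -3.85, and their summed level was 94.2 to 333 in the controls and 10.2 to 31.7 with the construct. Their part in the aquaporin values was not tested.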

How the data were processed

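Agilent Feature Extraction 11.5.1.1 gave the deposited intensity values, per the file headers, from single-colour arrays of build TAIR10, while the submitters' processing notes name version 9.1.3.1. The deposited processed signal is a linear intensity already corrected for background by that program. In the authors' value table the unit is the natural log: each entry equalled the logged processed signal less 7.389 on control arrays and less 7.146 on transgenic arrays, to within 0.00012. Column medians were -1.265 to -1.047 for controls and -1.231 to -0.8372 for transgenic arrays, and the sources used here do not say how the authors chose these constants. That table served as an alternative.

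Processed signals were divided by each array's 75th percentile over 43603 non-control probes, floored at 0.01 and put on a log2 scale. Outlier spots were dropped before averaging the spots of each probe. Probes were named by RefSeq accession with RefSeq's table for assembly TAIR10.1 (34348 matched, at 25410 loci), and no coordinates are given. The brightest probe stood for a gene. Genes well above background on at least 4 of 8 arrays were fitted with limma 3.58.1 in R 4.3.3 (lmFit and eBayes, no covariates), with Benjamini-Hochberg adjustment over 19609 genes. Intervals are 95% intervals of the moderated fit. Where no array of a group was above background, the fold is a bound against the higher of that array's dimmest detected probe and its own signal. No array number pairs samples by its labels, and same-numbered arrays deviated together with correlations from -0.396 to 0.157. The fit was tested on simulated data, where it recovered 30% of changes of 0.5 log2 units, 70.3% of 1 and 89.4% of 2. A gene that did not pass may therefore still have changed. Saturation was checked, and no aquaporin probe that stood for a gene was saturated.

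Every aquaporin is named. Values on each array are given for members past the threshold, and up to 4 passing members with the largest change are named from each companion list. The epidermis, pollen and seed markers, RHD6, AHA6 and BOR1 were named after their values were seen. The members and lists were chosen with earlier results of these data known. Alternatives were other scalings (median, quantile, spike-in), normexp with an offset of 50 on the median signals, the authors' table, other filters, a floor of 0.001, the mean of probes, trend and robust settings, array weights, a replicate block, stricter thresholds and leaving out arrays. Leaving out control arrays 2 and 3 together and fitting every probe on its own were added after seeing the data. The number of arrays limits the precision.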

Additional observations from a re-analysis of the deposited data

Results flagged for a closer look

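Among 70 groups of 4 arrays, 7 held 1 array that stood far from the other 3, by a gap beyond Dixon's critical value for 4 samples. Chance alone marks about 1 in 20 groups of measured values. Groups wholly at the floor cannot be marked, so the 7 are not read against that rate. Values are on the log2 scale used above. Control array 2 stood apart for 3 aquaporins. It read 5.17 for PIP1-3, where the other controls read 4.49 to 4.56, and 6.55 for PIP2-1, where the others read 6.03 to 6.12. For NIP4-2 it read -6.59 while the other controls were at the floor of -6.64, which is a step at the edge of detection. There the floor removes the spread of the other controls and so makes the mark by itself. Control array 3 read -6.37 for TIP1-3 with the other controls at the floor, where the same holds. Control array 4 read -1.68 for TIP5-1, where the others read -1.93 to -1.91. Of the transgenic arrays, array 3 read 3.70 for PIP1-1 against 3.98 to 4.04, and array 4 read -4.36 for TIP3-1 against -4.75 to -4.71. Control array 2 stood toward the transgenic level for PIP1-3, PIP2-1 and NIP4-2, and control array 4 away from it for TIP5-1.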

How the results depend on the processing

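PIP1-3, PIP2-8, TIP2-1, TIP3-1 and TIP5-1 kept their direction and call in each alternative run, and PIP2-5 did in each but the filter of all 8 arrays, which removed it. Spike-in scaling gave 6 higher and 8 lower aquaporins and turned the sign of PIP1-2 (-0.15), PIP1-4 (-0.095), PIP2-1 (-0.20), PIP2-2 (-0.17), PIP2-4 (-0.054), TIP1-2 (-0.0051), TIP2-2 (-0.24), NIP1-2 (-0.34) and SIP2-1 (-0.15). Its construction, which moves the median gene by -0.43, accounts for the common shift. Other signs that turned were PIP2-1 with quantile normalization (-0.052), PIP1-1 with normexp (0.012) and with the mean of its probes (0.14), PIP1-5 with array weights (0.00219) and without transgenic array 1 (0.00660, against -0.18 to 0.00660 over single arrays left out), and NIP1-2 with array weights (-0.0102), without control array 2 (-0.00569, against -0.00569 to 0.19) and without control arrays 2 and 3 (-0.00639). The cause was not tested, and none of these values was called. A change of at least 1 log2 unit left 5 higher and 3 lower, and a threshold of 0.01 left 7 and 1. The replicate block, which the labels do not justify, left 7 and 2. Leaving out single arrays gave 8 to 15 higher, 3 to 5 lower, 0 to 8 pairs of relatives and an ERF035 change of 6.95 to 8.11. The 15 came without control array 2, where PIP2-1, PIP2-2, PIP2-4, TIP1-2 and SIP1-2 were gained, and the 0 came without control array 3 or 4. The 3 lower came without control array 4 or transgenic arrays 2 or 4. Array weights gave 15 higher and 5 lower. Without control arrays 2 and 3 together the counts were 13 and 5, and the test of pairs could not reach 0.05, since 15 assignments allow no p under 0.0667. Shares over all genes were computed only for the main fit, with and without the limit of 1 log2 unit, and for spike-in scaling. Counts under the other settings therefore say nothing particular about the family. Slide as a block was not run, since each group lies on 1 slide. Values near the floor, as for PIP2-5, TIP3-1, NIP4-2, SIP1-2 and TSPO, are limited by signal over background.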
